A study of Caenorhabditis elegans with 15 samples.

Results

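The genes described here are 10 genes of the *Caenorhabditis elegans* oocyte and eggshell: *oma-1*, *oma-2*, *puf-3*, *puf-5* and *puf-11*, which act in oocyte growth and maturation, *rme-2*, which acts in yolk uptake, and *egg-1*, *egg-2*, *egg-3* and *cbd-1*, which act at the egg surface. They were chosen by name, and each matched exactly 1 of the 46756 rows of the gene count table. The study sequenced total RNA of whole young adult worms of 5 strains, 3 libraries per strain from separate worm preparations, with about 20000 worms in each sample. The comparison behind it was of worms lacking normal neurexin (*nrx-1*) or neuroligin (*nlg-1*), which are synaptic adhesion proteins, with the wild type.

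N2 was the wild type. *nrx-1* was mutated in 2 strains, *nrx-1* (ok1649) and *nrx-1* (tm1961), and *nlg-1* in 2 others, *nlg-1* (ok259) and *nlg-1* (tm474), and these strains are called by their allele from here on. All 5 strains were kept at 20 °C on agar with *Escherichia coli* OP50 bacteria as food, and no further allele or treatment was given for any of them. The ok1649 and tm1961 deletions affect the long alpha isoforms of *nrx-1*, ok259 is described as a full knockout of *nlg-1*, and tm474 is a deletion in that gene. N2, ok1649 and ok259 came from the Caenorhabditis Genetics Center and tm1961 and tm474 from the National Bioresource Project, and tm1961, ok259 and tm474 had not been backcrossed before sequencing, so the allele and the rest of the strain's genome cannot be told apart. The worms were whole animals and values are relative to the library. A lower value can thus mean fewer oocytes, less RNA per oocyte or a larger share of other RNA, and these cannot be told apart.

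In the *C. elegans* gonad, oocytes grow in a row, take up yolk, arrest in meiosis and then mature and are fertilized as they enter the spermatheca. OMA-1 and OMA-2 are CCCH zinc finger RNA-binding proteins that act redundantly in oocyte maturation, and PUF-3, PUF-5 and PUF-11 are RNA-binding proteins of the Pumilio family that act on maternal transcripts. RME-2, a member of the LDL receptor family, is the oocyte receptor for yolk proteins (vitellogenins), which are made in the intestine. EGG-1 and EGG-2 are oocyte surface proteins with LDL receptor repeats that are needed for fertilization, EGG-3 is a phosphatase-like protein without catalytic activity that organizes egg activation at the cell cortex, and CBD-1 is a chitin-binding protein of the outermost eggshell layer.

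Levels are given as CPM, counts relative to a fixed library size, scaled by the trimmed mean of M values (TMM), which corrects each library's total for a few very abundant transcripts. In N2 all 10 genes were detected well above zero, and per kilobase of exon *cbd-1* was the highest, at 179 ± 44.3 CPM per kb (SD, n = 3). It was followed by *puf-5* at 97.8 ± 44.4, *egg-1* at 88.0 ± 40.6, *puf-11* at 80.0 ± 26.3 and *rme-2* at 72.3 ± 15.5 CPM per kb. The lower part of the order was *oma-2* at 71.0 ± 34.0, *puf-3* at 59.3 ± 15.3, *oma-1* at 46.4 ± 11.6, *egg-2* at 31.3 ± 21.7 and *egg-3* at 30.4 ± 15.0 CPM per kb. Only the step from *cbd-1* to *puf-5* separated neighbours whose N2 ranges did not overlap. Even that step was not kept everywhere, with *cbd-1* above *puf-5* per kilobase in 12 of the 15 libraries, whereas *puf-3* lay above *oma-1* in 15 of 15.

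On the WBcel235 build *cbd-1* lies on chromosome IV at 11372991-11377627, *rme-2* on IV at 5470026-5473174, *oma-1* on IV at 8888976-8890999, *puf-11* on IV at 6421585-6423497 and *puf-3* on IV at 13510307-13512162. The other 5 are spread over 3 chromosomes: *puf-5* on II at 8575541-8577787, *egg-3* on II at 10882408-10884441, *egg-1* on III at 5728180-5730159, *egg-2* on III at 7058527-7060583 and *oma-2* on V at 8029439-8031214. All 10 are annotated as protein-coding, and values are summed over their exons. Exons of *egg-1* share 42 bases with the opposite-strand gene B0244.9 and those of *egg-3* share 21 bases with lurp-1. The libraries were stranded, but the strand setting of the counting is not given in the sources used here, so reads in those bases may come from either gene.

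Library totals ran from 10152578 to 26211067 counts. The 3 libraries that stood apart for the oocyte and eggshell genes were replicate 1 of ok1649, ok259 and tm474, which had TMM factors of 0.642 to 0.684 against 0.937 to 1.28 in the other 12. The share of counts on genes annotated as noncoding RNA was 4.03% to 5.50% in N2 and 2.99% to 30.3% in the mutants. As a check of the labels, *nrx-1* was at 10.1 to 11.8 CPM in N2, 6.56 to 8.79 in ok1649 and 4.05 to 7.87 in tm1961, while *nlg-1* was at 11.5 to 18.1 CPM in N2, 8.09 to 10.1 in ok259 and 1.34 to 6.76 in tm474. Counts over whole genes do not separate the deleted part from the rest. In the other mutants *nrx-1* ran from 5.83 to 11.6 CPM and *nlg-1* from 2.78 to 16.9 CPM, so low values were not particular to the strain that carried the deletion.

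The 10 genes moved as a block from library to library, and by far more within mutant strains than within N2. Together they took 0.136%, 0.196% and 0.241% of all counts in N2 replicates 1 to 3. In ok259 the same share was 0.649% in replicate 1 (95% Wilson interval 0.645% to 0.652%) but 0.0120% (0.0115% to 0.0125%) and 0.0128% in replicates 2 and 3. In ok1649 it was 0.560%, 0.0265% and 0.0388%, so in both strains replicate 1 stood above every N2 library and the other replicates far below. The tm474 strain had the same high replicate 1, at 0.507%, with 0.0935% and 0.109% in the others. The tm1961 strain had no high library, its replicates taking 0.0243%, 0.111% and 0.0733%. Intervals cover counting error only and reached at most 4.26% of the share to either side.

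**Figure D1:**
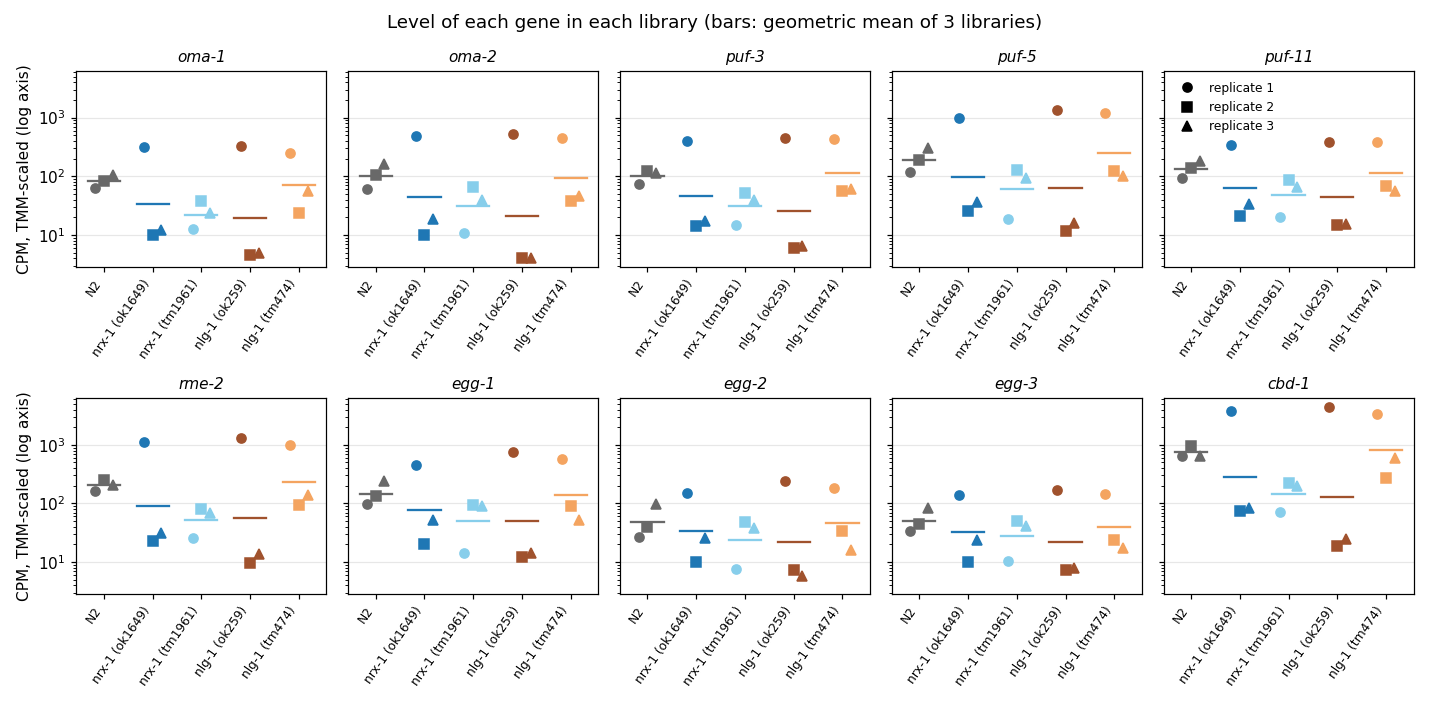
TMM-scaled CPM (log axis) of each of the 10 genes in each of the 15 libraries, by strain, with replicate number as the marker shape and the geometric mean of 3 libraries as a bar. In every panel replicate 1 of ok1649, ok259 and tm474 sits above the 3 N2 libraries, and replicates 2 and 3 of ok1649 and ok259 sit below them.

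Among the genes of oocyte growth and maturation, *oma-1* was at 63.0, 83.2 and 105 CPM in N2. The mutant values of *oma-1* in replicates 1 to 3 were 317, 9.86 and 12.3 in ok1649, 12.4, 37.1 and 23.9 in tm1961, 328, 4.59 and 4.84 in ok259 and 249, 23.7 and 57.0 in tm474. Every tm1961 library was therefore below every N2 library, and in each of the other mutants replicate 1 was above N2 and the other replicates below it. Its partner *oma-2* was at 59.6, 105 and 164 CPM in N2, 480, 10.1 and 18.7 in ok1649, 10.8, 66.3 and 39.99 in tm1961, 530, 4.09 and 4.09 in ok259 and 453, 37.7 and 46.8 in tm474. The pattern of *oma-2* was that of *oma-1*, except that tm1961 replicate 2 overlapped the N2 range.

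The PUF gene *puf-5* was at 117, 191 and 299 CPM in N2, 987, 25.6 and 35.9 in ok1649, 18.4, 127 and 94.7 in tm1961, 1340, 11.5 and 15.8 in ok259 and 1185, 125 and 102 in tm474. Replicate 2 of tm1961 and of tm474 fell inside the N2 range of *puf-5*. Its relatives *puf-3* and *puf-11* ran from 72.7 to 121 and from 92.8 to 184 CPM in N2. Their lowest values, 5.95 and 14.7 CPM, were in ok259 replicate 2, and their highest, 447 and 390 CPM, in replicate 1 of that strain.

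The yolk receptor gene *rme-2* was at 163, 252 and 207 CPM in N2, with a within-strain SD of 0.315 on the log2 scale, the smallest of the 10. Its values were 1109, 22.5 and 31.5 CPM in ok1649, 26.3, 80.2 and 68.3 in tm1961, 1282, 9.82 and 13.9 in ok259 and 979, 92.9 and 140 in tm474. No mutant library fell inside the N2 range of *rme-2*, which lay between the 3 high libraries and the 9 others.

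Among the egg surface genes, *cbd-1* was at 654, 973 and 646 CPM in N2 and spanned the widest range of the 10 genes. It was at 3810, 74.9 and 84.0 CPM in ok1649, 72.3, 223 and 199 in tm1961, 4431, 18.9 and 24.6 in ok259 and 3326, 269 and 601 in tm474. Within ok259 its highest library was 235-fold above its lowest, against 1.51-fold within N2.

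The surface protein genes *egg-1* and *egg-2* are a related pair. *egg-1* was at 98.4, 136 and 239 CPM in N2, 450, 20.2 and 52.9 in ok1649, 14.3, 93.6 and 91.5 in tm1961, 747, 12.3 and 14.4 in ok259 and 566, 90.1 and 52.5 in tm474. *egg-2* was at 27.3, 39.6 and 99.0 CPM in N2, 153, 9.92 and 25.9 in ok1649, 7.77, 47.7 and 37.8 in tm1961, 244, 7.23 and 5.83 in ok259 and 183, 34.6 and 15.9 in tm474. Replicates 2 and 3 of tm1961 thus overlapped N2 for *egg-2*, where the N2 libraries themselves differed 3.63-fold, the most of any of the 10. The egg activation gene *egg-3*, at 33.6 to 85.0 CPM in N2, had the smallest span within ok259, 23.3-fold, from 7.41 to 173 CPM.

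Counted library by library, replicate 1 of ok1649 was above every N2 library for 10 of 10 genes, where 44.2% of all genes tested were. The same held for 10 of 10 in replicate 1 of ok259 (46.9% of all genes) and for 10 of 10 in replicate 1 of tm474 (45.5%). Below every N2 library were 10 of 10 in ok1649 replicate 2 (39.0% of all genes), 10 in replicate 3 (38.6%), 10 in ok259 replicate 2 (37.4%) and 10 in its replicate 3 (37.8%). The tm1961 libraries had 10 (38.7%), 6 (37.1%) and 8 (42.6%) below every N2 library, and tm474 replicates 2 and 3 had 8 (41.7%) and 10 (30.1%). With CPM scaled by library totals alone, replicate 1 was above N2 for 8, 10 and 9 of the 10 in ok1649, ok259 and tm474. The share of all genes above N2 was not computed with that scaling, and the part of the scaling was not tested.

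Each mutant was then set against N2 by the quasi-likelihood test of edgeR, over all genes that passed the filter on low counts, which all 10 did in every comparison. A gene was called where its log2 fold change was over 1 in size and its Benjamini-Hochberg adjusted p under 0.05. The 4 comparisons share the N2 libraries, so their values are set side by side and not counted as separate evidence.

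In tm1961 the 10 genes lay below N2, with a median log2 fold change of -1.34 against 0.11 over all genes tested. None of the 10 was called, and neither was any other gene (0.0% of 16268), although 4 of the 10 had an unadjusted p under 0.05 and were lower, against 15.6% of all genes. These were *cbd-1* at -2.14 ± 0.48 (SE, adjusted p = 0.0745), *rme-2* at -1.77 ± 0.46 (adjusted p = 0.0753), *oma-1* at -1.71 ± 0.44 (adjusted p = 0.0753) and *puf-3* at -1.48 ± 0.49 (adjusted p = 0.0929). The other 6 ran from -1.42 for *oma-2* to -0.61 for *egg-3*. For 6 of the 10, namely *cbd-1*, *rme-2*, *oma-1*, *puf-3*, *puf-11* and *egg-1*, all 3 tm1961 libraries were below all 3 N2 libraries, and no gene of the 10 had all 3 above, while the groups did not overlap in either direction for 39.1% of all genes.

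The tm1961 result depended on the fit. Deviations of same-numbered N2 and tm1961 libraries from their group means correlated at 0.673, 0.181 and 0.632, so weakly for replicate 2. With the same N2 libraries the correlations were -0.395, -0.14 and -0.672 in tm474 and -0.331, 0.05 and -0.406 in ok259. The labels do not say that the numbers pair libraries, and the block was taken up for tm1961 from these same counts. In a fit with a block for the replicate number, 8 of the 10 were called lower, all but *egg-2* and *egg-3*, against 15.5% of all genes called lower. In that fit *cbd-1* was at -2.27 ± 0.37 (edgeR adjusted p = 0.00905) and *rme-2* at -1.89 ± 0.34 (adjusted p = 0.00905). DESeq2 called 4 lower (*cbd-1*, *rme-2*, *oma-1* and *puf-3*), with 9.29% of all genes called lower. The same 4 were called lower by edgeR when tm1961 replicate 1, the lowest library of the strain, was left out, with 17.6% of all genes called lower, and the median of the 10 was then -0.90. Each of the other alternatives, such as other scalings, other filters or leaving out another library, called none of them. At most 6 genes (of 28747, without a filter) were called lower in those fits. In a fit of all 15 libraries the tm1961 median was -1.39, with none called and none at an unadjusted p under 0.05. The direction turned when the share of counts on noncoding RNA genes was added to that fit as a covariate. The 10 genes in tm1961 then ran from 1.46 to 2.54 with a median of 2.03. None was called with the covariate, but 6 had an unadjusted p under 0.05 and were higher, against 5.99% of all genes. The noncoding share was 4.03% to 5.50% in N2 and 15.6% to 26.4% in tm1961. These ranges do not overlap, so no N2 and tm1961 libraries were compared at a like share, and the covariate values rest on extrapolation. In ok1649, ok259 and tm474 the covariate gave medians of 1.37, 1.43 and 1.76 with none called, and 2, 1 and 5 of the 10 were higher at an unadjusted p under 0.05, against 7.6%, 12.1% and 9.03% of all genes. Over all alternatives the adjusted p of *cbd-1* in tm1961 ran from 0.00119 to 0.502.

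In ok1649, ok259 and tm474 the high replicate 1 offset the low replicates, and the fold changes had little direction. Their medians over the 10 genes were 0.50, 0.32 and 0.47 on the log2 scale, against 0.15, 0.03 and 0.08 over all genes tested. The standard errors were 0.92 to 1.39 in ok1649, 1.13 to 1.70 in ok259 and 0.66 to 0.84 in tm474, larger than nearly all of the changes. None of the 10 was called or had an unadjusted p under 0.05 in either direction in these 3 strains. Over all genes, 0.0251% were called in ok1649 and 0.0% in each of the *nlg-1* strains, and 18.1%, 14.2% and 8.41% had an unadjusted p under 0.05. DESeq2 called none of the 10 either, and gave no adjusted p to 4 of the 10 in ok1649 and to 4 in ok259. For none of the 10 were the 3 libraries of these mutants all above or all below N2, while 22.9% of all genes in ok1649, 22.9% in ok259 and 14.8% in tm474 were.

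**Figure D2:**
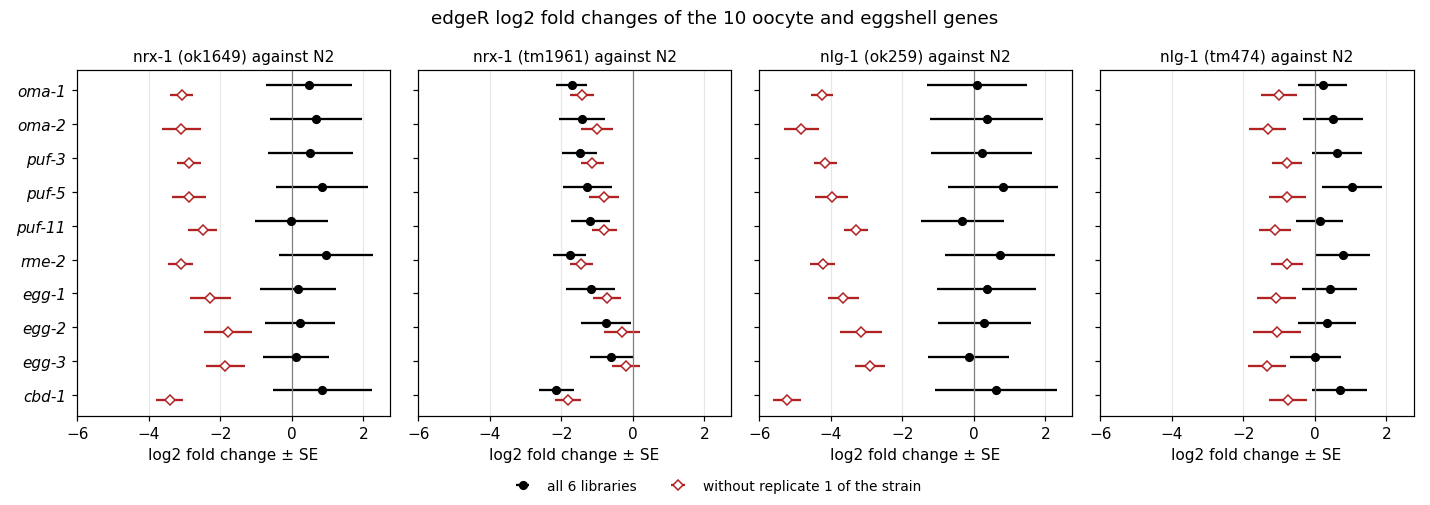
edgeR log2 fold changes against N2 (± SE) of the 10 genes in the 4 mutant strains, with all 6 libraries (filled circles) and without replicate 1 of the mutant (open diamonds). Without replicate 1 the values of ok1649 lie between -3.42 and -1.79 and those of ok259 between -5.23 and -2.91, while with all libraries they lie near 0.

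Leaving out replicate 1 of ok259 gave 10 of 10 genes called lower, against 22.9% of all genes, with a median of -4.07. The changes were deepest for *cbd-1*, at -5.23 ± 0.39 (edgeR adjusted p = 0.0016), and *oma-2*, at -4.83 ± 0.49 (adjusted p = 0.00165), and shallowest for *egg-3*, at -2.91 ± 0.43 (adjusted p = 0.00286). In ok1649 without replicate 1, 9 of 10 were called lower, against 24.6% of all genes, with a median of -2.89, from -3.42 ± 0.37 for *cbd-1* to -1.79 ± 0.67 for *egg-2* (edgeR adjusted p = 0.0629), the gene that was not called. In tm474 without replicate 1 none was called (0.0% of all genes), with a median of -1.03 and edgeR adjusted p-values from 0.511 to 0.625. At an unadjusted p under 0.05, 3 of the 10 were lower, against 457 of the 16578 genes tested. Over all alternatives and all 10 genes, the adjusted p ran from 0.00431 to 1 in ok1649, from 0.0016 to 1 in ok259 and from 0.283 to 1 in tm474. These fits leave 2 libraries of the mutant, and the high library was known from these same counts before it was left out.

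Tested over all 5 strains together, none of the 10 genes differed (edgeR adjusted p from 0.953 to 0.988), where 0.0402% of 17395 genes did. Among the 4 mutants none differed either (adjusted p = 1, with 0.0345% of all genes called), and none had an unadjusted p under 0.05 in either test. With the 3 high libraries left out together, an alternative chosen after seeing the data, 7 of the 10 differed among the 5 strains, against 9.52% of all genes, and all 10 had an unadjusted p under 0.05, against 32.6% of all genes. Among the 4 mutants alone none was called in that fit, where 0.0336% of all genes were, although 9 of the 10 had an unadjusted p under 0.05, against 12.6% of all genes. The left-out libraries were chosen for being high in these same genes. The strain differences in how low the replicates fell, deepest in ok259, were thus not past the threshold.

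The 10 genes did not keep fixed proportions within a library. Per kilobase, *cbd-1* stood at 10.01, 10.3 and 2.73 times *egg-2* in N2 replicates 1 to 3. In ok259 the ratio was 7.59 in replicate 1 but 1.09 and 1.76 in replicates 2 and 3, and in ok1649 it was 10.4, 3.15 and 1.36. The tm1961 libraries had ratios of 3.89, 1.95 and 2.20, and those of tm474 had 7.59, 3.25 and 15.8. The ratio was high in the 3 high libraries and low in most of the low ones, but tm474 replicate 3, with all 10 genes below N2, had the highest of all, where *cbd-1* was at 0.793 of its N2 mean and *egg-2* at 0.287.

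Of the 8 pairs computed, *cbd-1* to *egg-3* ran almost as widely, from 1.08 to 14.8, followed by *rme-2* to *egg-2*, from 0.749 to 5.43, and *puf-5* to *puf-11*, from 0.65 to 2.87. The other 4 pairs spanned 2.12-fold to 2.88-fold. The ratio of *egg-1* to *egg-2* per kilobase ran from 1.68 to 3.55 over the 15 libraries, that of *oma-1* to *oma-2* from 0.471 to 1.05, and that of *rme-2* to *cbd-1* from 0.343 to 0.833. The ratio of *puf-3* to *puf-11* was 1.11 to 1.16 in the 3 high libraries and 0.402 to 1.08 in the other 12. Over the 15 libraries the 45 pairs had Pearson r from 0.898 (*egg-2* with *cbd-1*) to 0.995, as a description, since the libraries share their strain, depth and composition. *egg-1*, *egg-2* and *egg-3* were at 0.985 or more with one another.

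**Figure D3:**
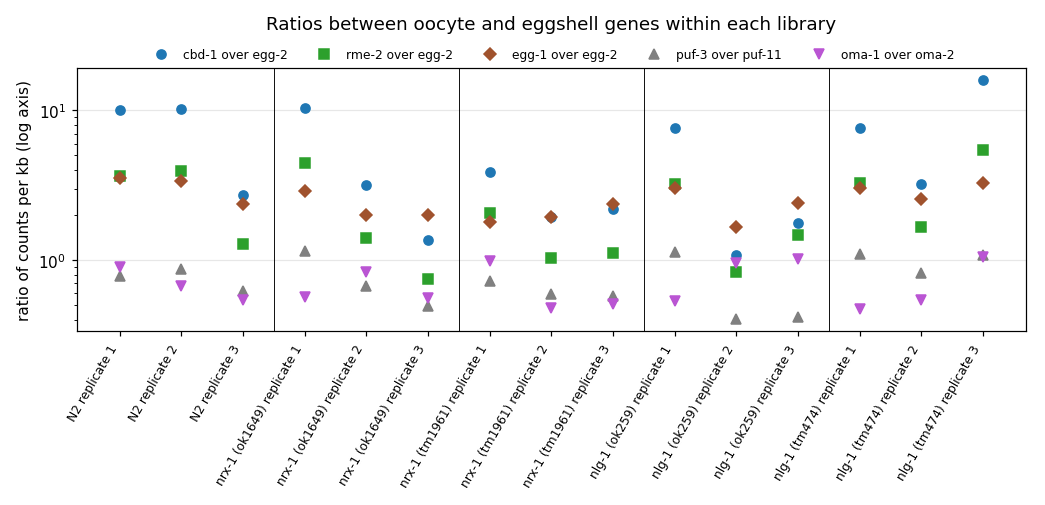
Ratios of counts per kilobase of exon between 5 pairs of oocyte and eggshell genes (log axis) in each of the 15 libraries. The ratio of *cbd-1* to *egg-2* spans 1.09 to 15.8, while that of *egg-1* to *egg-2* stays between 1.68 and 3.55.

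The yolk protein genes, whose products RME-2 takes up, followed the oocyte genes though they are expressed in the intestine. The 6 genes *vit-1* to *vit-6* took 0.877%, 1.89% and 2.29% of counts in N2, 8.20%, 0.141% and 0.195% in ok1649, and 10.7%, 0.044% and 0.108% in ok259. In tm474 they took 9.09%, 0.772% and 0.789%, and in tm1961 0.103%, 0.735% and 0.483%. The span was thus wider than that of the oocyte genes, from 0.044% to 10.7%. No yolk gene was called in any strain with all libraries, with medians of 2.08, -1.49, 2.05 and 2.29 in ok1649, tm1961, ok259 and tm474. At an unadjusted p under 0.05, 3 of 6 were higher in tm474, against 829 of 15947 genes, and 2 of 6 were lower in tm1961, against 15.6% of all genes. Without replicate 1 of the strain, 6 of 6 were called lower in ok1649 and 6 of 6 in ok259, against 24.6% and 22.9% of all genes, and 0 of 6 in tm474. In tm1961 2 of 6 were called lower without replicate 1, against 17.6% of all genes, and 3 of 6 with the replicate block, against 15.5%.

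**Figure D4:**
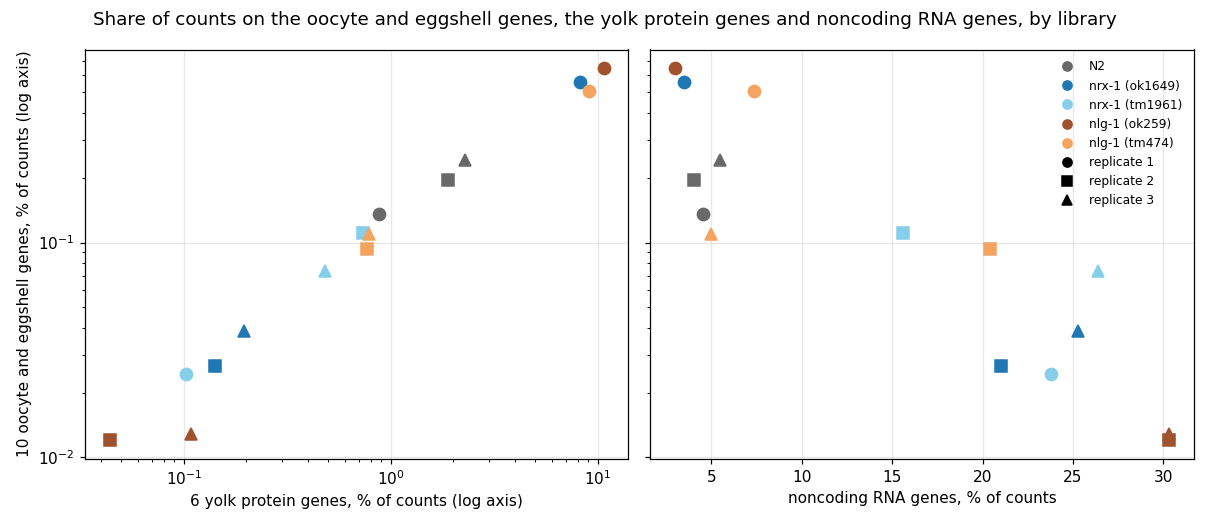
Share of counts on the 10 oocyte and eggshell genes (log axis) against the share on the 6 yolk protein genes (log axis, left) and on noncoding RNA genes (right), 1 point per library, with strain as colour and replicate as shape. The 3 high libraries sit at the upper right on the left, at 8.20% to 10.7% yolk counts, and tm474 replicate 3 combines a noncoding share of 4.99% with a share of 0.109% on the 10 genes.

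Other measures moved with the 10 genes, and their part in the result was not tested beyond the values given. The noncoding share was 2.99% to 7.35% in the 3 high libraries and 15.6% to 30.3% in 8 of the other 9 mutant libraries, the exception being tm474 replicate 3 at 4.99%. Markers of body wall muscle (5 genes, none at 0) summed to 4834 to 13140 CPM in N2 and to 14900, 18780 and 9219 CPM in replicate 1 of ok1649, ok259 and tm474, against 1155 to 6282 in 8 of the other 9 mutant libraries. The exception was again tm474 replicate 3, with the highest muscle sum of all, 20520 CPM. The 5 intestinal markers, none at 0, summed to 5643 to 11330 CPM in N2, 8921 to 9876 in the 3 high libraries, 8465 in tm474 replicate 3 and 552 to 3234 in the other 8. These 5 did not all move with their sum. Their correlations to the mean of the 10 genes ran from -0.54 for *elt-7* to 0.81 for *act-5*, with a median of 0.61. The 7 neuronal markers, none at 0, stayed within 311 to 360 CPM in N2 and 193 to 380 CPM in the mutants. Their sum hid members that moved in opposite directions, with correlations to the mean of the 10 genes from -0.85 for *unc-64* to 0.87 for *snb-1* and a median of -0.56 (15 libraries). In ok1649 without replicate 1, 1 of the 7 was called higher and 2 lower, where 3582 of 16918 genes were called higher and 4160 (24.6%) lower. The neuronal gene called higher was *ric-4*, a synaptic SNAP-25 protein, at 1.91. Those called lower were *egl-3*, a proprotein convertase, at -1.96 and *snb-1*, a synaptobrevin, at -1.61 (*snb-1* and *unc-64* are named after their values were seen).

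Other genes of the eggshell and of egg activation, 11 in all, moved with the 10. None was called in any strain with all libraries. Without replicate 1, 9 of 11 were called lower in ok1649, against 24.6% of all genes, and 9 of 11 in ok259, against 22.9%. In tm1961 8 of 11 were called lower with the replicate block, against 15.5%. The lowest was *cpg-1*, a chondroitin proteoglycan of the eggshell, at -3.47 in ok1649 and -4.80 in ok259. The same 2 genes were not called in either strain, *gna-2*, an enzyme that makes the sugar precursor of chitin, at 1.04 in ok1649 and -0.53 in ok259, and *cpg-3*, another chondroitin proteoglycan, at 0.13 and -1.02, and *cpg-3* is named after its values were seen.

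The 17 other maternal RNA regulators behaved alike, with none called with all libraries. Without replicate 1, 15 of 17 were called lower in ok1649 and 15 of 17 in ok259, and 14 of 17 were called lower in tm1961 with the block, against the same 24.6%, 22.9% and 15.5% of all genes. Their lowest member in tm1961 was *gld-1*, a translational repressor of the germ line, at -2.12 with all libraries, and their highest was *nos-2*, a Nanos-family regulator, at 0.68. Of the 8 genes for endocytosis of yolk, 7 were called lower without replicate 1 in ok1649 (24.6% of all genes) and 7 in ok259 (22.9%). Of the 13 kinases and signalling genes of meiotic maturation, 9 and 6 were called lower in the same fits, against those same shares, and their highest member was *acy-4*, an adenylyl cyclase of the gonadal sheath, at 0.85 and 1.00.

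The sperm genes did not rise in the libraries where the oocyte genes were high. The 16 genes summed to 675 to 1089 CPM in N2 and 327 to 711 CPM in the mutants, and replicate 1 of ok1649, ok259 and tm474, the highest libraries for every oocyte gene, had 673, 390 and 423 CPM, none of them above N2. Per library, the median correlation of the 16 with the mean of the 10 oocyte genes was -0.02, with single genes from -0.85 to 0.73, against 0.98 for the other eggshell genes, 0.96 for the maternal regulators and 0.97 for the yolk genes (15 libraries, as a description). In ok259 with all libraries 10 of the 16 sperm genes had an unadjusted p under 0.05 and were lower, against 1235 of the 15905 genes tested, with none called. By the same measure 7 were lower in tm474 (512 of 15947 genes), 7 in tm1961 (2539 of 16268) and 4 in ok1649 (815 of 15957). None of the 16 was higher at that p or called in any of these fits. In ok1649 without replicate 1, 9 of 16 were called lower and 1 higher (24.6% of all genes called lower). In ok259 without replicate 1, 10 were called lower and 2 higher (22.9%). The sperm medians there were -1.67 and -1.55, against -1.02 and -1.59 with all libraries, so in ok259 they were low with or without the high library. In tm1961 with the block 7 of 16 were called lower (15.5% of all genes), at a median of -0.93.

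The genes most like the 10, by Pearson r over the 15 libraries between log2 CPM and the mean of the 10, were *gln-6* and *C01G8.1* at 0.998, *C05C10.5* at 0.996, and *cpg-2* and *spn-4* at 0.995. After them came *nos-1*, *htz-1* and *Y51F10.2* at 0.994 and *perm-4* and *C41H7.6* at 0.993. Of these, *cpg-2* encodes an eggshell proteoglycan, *perm-4* an eggshell protein and *spn-4* a maternal RNA-binding protein. With each strain's mean removed first, all of these stayed at 0.992 or more. Of 17385 genes ranked, 994 had r over 0.9 and 404 had r under -0.9, so close likeness was not particular to a few genes.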

How the data were processed

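Total RNA of whole young adults was sequenced after ribosomal RNA depletion, with 3 libraries for each of 5 strains. The authors trimmed reads with Trimmomatic, aligned them with STAR and counted uniquely mapped reads over exons with featureCounts of Subread, and they deposited raw counts for each gene. Reads were demultiplexed with bcl2fastq 2.20 and the build is WBcel235, per the submitters' processing notes. The annotation release is not given in the sources used here, and positions and exon lengths were taken from Ensembl release 115. Totals were 10152578 to 26211067 counts per library, and no row was left out of them.

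The counts were analysed here with edgeR 4.0.16 in R 4.3.3: filterByExpr, TMM scaling and the quasi-likelihood test, 3 libraries against 3, with Benjamini-Hochberg adjustment over all genes tested. Fold changes are log2 values of the mutant over N2. DESeq2 1.42.0, other scalings and filters, a noncoding covariate, a replicate block and leaving out each library were the alternatives. The code was tested on simulated data. Log2 CPM for correlations used a prior count of 2.

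The members and gene lists were chosen with earlier results of these data known. All 10 genes are described, lists of at most 6 genes may be named in full, and of longer lists the highest and lowest values are named, with the 10 genes most like the mean of the members. Replicate pairs of all strains differed beyond sampling noise (lowest chi-square per degree of freedom 28.3), so none was a copy. Whether numbers pair libraries was checked by the correlation of same-numbered deviations from the group means. It was 0.673, 0.181 and 0.632 in tm1961, where the block value is given with the results on the strength of these correlations alone. The correlation was -0.182, 0.184 and 0.223 in ok1649, -0.331, 0.05 and -0.406 in ok259 and -0.395, -0.14 and -0.672 in tm474.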

Additional observations from a re-analysis of the deposited data

How the results depend on the processing

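With library totals in place of TMM, the median log2 fold change of all genes tested moved to 0.14, 0.25, 0.18 and -0.07 in ok1649, tm1961, ok259 and tm474, and the median of the 10 genes was -0.054, -1.22, 0.03 and 0.10, or -0.19, -1.47, -0.15 and 0.17 relative to all genes, against 0.35, -1.46, 0.29 and 0.39 with TMM. The direction in ok1649 and ok259 relative to all genes thus turned with the scaling. With library totals the sign turned for *oma-1* (-0.084), *puf-3* (-0.024), *egg-1* (-0.33), *egg-2* (-0.26) and *egg-3* (-0.34) in ok1649, for *oma-1* (-0.19) and *puf-3* (-0.036) in ok259, and for *oma-1* (-0.10), *puf-11* (-0.19), *egg-2* (-0.027) and *egg-3* (-0.33) in tm474. Without a filter on low counts it turned for *egg-1* (-0.074), *egg-2* (-0.021) and *egg-3* (-0.13) in ok1649 and *egg-3* (-0.053) in tm474, and with protein-coding genes only for *egg-1* (-0.11), *egg-2* (-0.050) and *egg-3* (-0.16) in ok1649. In ok259, *egg-3* became 0.063 with DESeq2, 0.062 with RLE scaling and 0.24 in the fit of 15 libraries, where *puf-11* was 0.059. The cause of these turns was not tested. With the counts of *puf-3* and *puf-11* summed, the pair was at 0.24 in ok1649 and -0.064 in ok259. Singly, *puf-3* and *puf-11* were at 0.52 and -0.02 in ok1649 and at 0.22 and -0.32 in ok259.

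With the noncoding share as a covariate in 15 libraries, the median was 1.37 in ok1649, 1.43 in ok259, 1.76 in tm474 and 2.03 in tm1961, with none called. In tm1961 it gave *oma-1* at 1.95, *oma-2* at 2.503, *puf-3* at 2.11, *puf-5* at 2.54, *puf-11* at 1.46, *rme-2* at 2.36, *egg-1* at 1.87, *egg-2* at 1.83, *egg-3* at 1.77 and *cbd-1* at 2.52. *puf-11* was 0.85 in ok1649 and 0.97 in ok259, and *egg-3* was 1.05 in ok259. The noncoding shares of N2 and tm1961 did not overlap, so the tm1961 values rest on extrapolation. The cause was not tested.

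In a fit with a replicate block, 8 of the 10 were called lower in tm1961, against 15.5% of all genes. The medians in ok1649, ok259 and tm474 were -1.63, -2.84 and -0.13, with none called. In ok1649 the block gave -1.79 for *oma-1*, -1.88 for *oma-2*, -1.63 for *puf-3*, -1.63 for *puf-5*, -1.74 for *rme-2*, -1.27 for *egg-1*, -0.81 for *egg-2*, -0.92 for *egg-3* and -1.97 for *cbd-1*. In ok259 it gave -2.97 for *oma-1*, -3.58 for *oma-2*, -2.91 for *puf-3*, -2.77 for *puf-5*, -2.90 for *rme-2*, -2.43 for *egg-1*, -1.86 for *egg-2* and -3.77 for *cbd-1*. In tm474 it gave -0.34 for *oma-1*, -0.37 for *oma-2*, -0.35 for *puf-11*, -0.19 for *egg-1*, -0.066 for *egg-2* and -0.47 for *egg-3*. The same-number correlation was -0.182, 0.184 and 0.223 in ok1649, ran from -0.406 to 0.05 in ok259 and was negative for every number in tm474. The block changed no other call.

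Leaving out single libraries gave 0 to 9 called genes in ok1649, 0 to 4 in tm1961 and 0 to 10 in ok259. The most were called without replicate 1 of the strain, where 24.6%, 17.6% and 22.9% of all genes were called lower. The medians ran from -2.89 to 0.73, -1.82 to -0.90, -4.07 to 0.88 and, in tm474, -1.03 to 0.90. In ok1649 single genes ran from -3.08 to 0.71 (*oma-1*), -3.09 to 0.92 (*oma-2*), -2.89 to 0.75 (*puf-3*), -2.88 to 1.08 (*puf-5*), -2.49 to 0.17 (*puf-11*), -3.11 to 1.19 (*rme-2*), -2.28 to 0.40 (*egg-1*), -1.79 to 0.60 (*egg-2*), -1.86 to 0.30 (*egg-3*) and -3.42 to 1.10 (*cbd-1*). In ok259 they ran from -4.24 to 0.64 (*oma-1*), -4.83 to 0.93 (*oma-2*), -4.16 to 0.79 (*puf-3*), -3.98 to 1.40 (*puf-5*), -3.30 to 0.21 (*puf-11*), -4.23 to 1.29 (*rme-2*), -3.65 to 0.92 (*egg-1*), -3.16 to 1.09 (*egg-2*), -2.91 to 0.41 (*egg-3*) and -5.23 to 1.20 (*cbd-1*). In tm474 they ran from -1.003 to 0.67 (*oma-1*), -1.32 to 0.97 (*oma-2*), -0.78 to 1.02 (*puf-3*), -0.77 to 1.49 (*puf-5*), -1.11 to 0.51 (*puf-11*), -0.78 to 1.22 (*rme-2*), -1.08 to 0.86 (*egg-1*), -1.06 to 1.03 (*egg-2*), -1.34 to 0.45 (*egg-3*) and -0.76 to 1.17 (*cbd-1*). With the 3 high libraries left out together, 7 of the 10 differed among the 5 strains, against 9.52% of all genes.

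Over all genes, DESeq2 called 448 higher and 251 lower in ok1649, 1900 and 1511 in tm1961, 360 and 501 in ok259, and 16 and 28 in tm474, where edgeR called 0 and 4, then 0 in each of the others. In tm1961 2605 genes were called higher and 2522 lower with the block. Without a filter edgeR called 132 higher and 175 lower in ok1649 and 111 and 71 in tm474.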

Other observations

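Genes first transcribed in the embryo were near the limit of detection: the 8 markers summed to 1.29 to 1.71 CPM in N2 and 1.18 to 9.82 CPM in the mutants, with up to 5 of the 8 at 0 in a library. The highest sums were in replicate 1 of tm474 (9.82 CPM) and of ok259 (4.62 CPM), with none at 0. Replicate 1 of ok1649, at 3.13 CPM, was within the range of the other mutant libraries. The 7 molting genes summed to 95.7 to 1530 CPM in N2 and 48.9 to 3663 CPM in the mutants, the highest value being tm474 replicate 3. Within N2, 9 of the 10 oocyte and eggshell genes were lowest in replicate 1, the exception being *cbd-1*, which was lowest in replicate 3. Replicate 1, with the 10 at a median of 0.647 of their N2 mean, was also where the molting genes were highest. The adult collagen gene *col-19* had a correlation of 0.98 with the mean of the 10 genes over the 15 libraries, the highest of 5 hypodermal markers. The median of those 5 was 0.675, and the lowest, *dpy-7*, went the other way at -0.648.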
